A study of Mus musculus with 36 samples.

Results

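H3K9me3, trimethylation of lysine 9 on histone H3, was examined here at peaks that lie in gene deserts, long stretches of the mouse genome without an annotated gene. A peak was taken where the authors annotated it as "Distal Intergenic" and placed it more than 100 kb from the nearest transcription start site, in either direction of difference. Of the 5374 H3K9me3 peaks listed for the comparison of knockout with wild type, 470 met this rule. The listed distances ran from 100.025 to 552 kb, with a median of 142 kb.

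The cells were primary aortic smooth muscle cells from C57BL/6N mice (wild type) or from mice lacking CSE in the whole body (knockout). CSE is cystathionine gamma-lyase, an enzyme encoded by Cth that makes hydrogen sulfide. Every group had received 1 µM angiotensin II, a vasoconstrictor peptide, for 24 h, so neither genotype has an untreated counterpart here. H3K9me3 was profiled by ChIP-seq (sequencing of immunoprecipitated chromatin) in 3 knockout and 3 wild-type samples, each with an input library. The age of the mice and the number of animals behind each sample were not given in the sources used here, and nothing says whether the 3 samples of a group came from separate cultures. The values below are the group means that the authors' deposited table holds. Values per sample were not analysed here, so library depth is unknown and replicate spread cannot be shown. A table of a repressive mark cannot check the labelled cell type: of 22 smooth muscle, endothelial, leukocyte and fibroblast marker genes, 0 were the nearest gene of a desert peak.

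As background, H3K9me3 marks constitutive heterochromatin. It is deposited by enzymes such as SUV39H1, SUV39H2 and SETDB1, is bound by HP1 proteins, and keeps satellite repeats and transposable elements silent. Gene deserts in mammals often flank genes for neural adhesion proteins and developmental transcription factors, and can hold distant enhancers of those genes as well as repeats. In smooth muscle cells most neural genes are silent. A nearest gene is used below as a label of position and not as a target of the peak.

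No genome sequence was used, so the bases under the peaks were not analysed here. A single desert peak reached a promoter window in the RefSeq table of assembly GRCm38.p6 (250 bases before to 50 after a gene's start), and the window is shown for that reason. The authors placed the peak 250 kb from Gm5835. In RefSeq it lies at the start of Gm35244, a long non-coding RNA gene on the minus strand, whose window is chr1:143344536-143344835. It is written 5′ to 3′ on the gene's strand, and the capitals mark the 92 bases that the peak covers.
Gm35244: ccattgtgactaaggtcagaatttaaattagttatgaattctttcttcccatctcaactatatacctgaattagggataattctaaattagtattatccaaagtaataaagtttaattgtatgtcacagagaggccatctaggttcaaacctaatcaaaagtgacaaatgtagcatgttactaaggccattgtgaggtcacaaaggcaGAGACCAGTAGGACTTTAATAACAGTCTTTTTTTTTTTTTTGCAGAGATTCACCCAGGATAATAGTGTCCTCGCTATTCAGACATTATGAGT
This window has 34% G and C and 1 CG pair, against medians of 52.7% and 7 CG pairs over 32851 RefSeq promoter windows. The peak (chr1:143344210-143344627) had a log2 mean of 0.81 normalised reads in knockout and 3.58 in wild type, with a log2 fold change of −2.76, p = 0.034 and FDR 1, per the authors' deposited table. The sequence at the start of this gene is thus poor in CG pairs, and the peak over it was lower in the knockout by the listed p only.

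Knockout values exceeded wild-type values at 282 of the 470 desert peaks and lay below them at 188, against 61.0% higher and 39.0% lower of all 5374 listed peaks. The share of desert peaks that were higher was thus 60% (95% exact binomial interval 55.4 to 64.5%, counting error only). The desert share is therefore near the background of the table. The split was 57.7% higher of 2451 intergenic peaks within 100 kb, 61.3% of 1602 intron peaks and 69.8% of 663 promoter peaks. Desert peaks lay close to nearer intergenic and intron peaks in this respect, and the difference from each was not tested. The median log2 fold change was 3.17 in higher and −3.03 in lower desert peaks, against 3.21 and −3.05 over all listed peaks, per the authors' deposited table.

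These folds rest on few reads. The median desert peak had 6.39 normalised reads per library, against 6.68 over all listed peaks, per the authors' deposited table. In higher peaks the median log2 value was 3.64 in knockout and 0.22 in wild type, and in lower peaks 0.20 in knockout and 3.40 in wild type, per the authors' deposited table. All listed peaks have a p under 0.05, so a gap between the group means of each peak is a property of the list. The lowest level of the table was 0.732 reads for wild type and 0.747 for knockout. It was reached by the wild-type mean of 99 desert peaks (21.1%) and the knockout mean of 55 (11.7%). Over all listed peaks these shares were close, at 19.2% and 10.2%. The size of these folds thus depends on that level. Among the 316 desert peaks with both values above that level, 183 were higher, or 57.9%. The same share over all listed peaks is not given here.

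No desert peak had an FDR under 0.05: it was 0 of 470, and 0 of 5374 listed peaks (0%), per the authors' deposited table. All 470 have a listed p under 0.05. The tool behind this p was not given in the sources used here, and the smallest p in the table is 0.00011. An FDR below 1 was given to 3 of the 470 desert peaks, at 0.364, 0.606 and 0.680, and to 117 of all 5374 listed peaks (2.18%), per the authors' deposited table. An unadjusted p under 0.01 was listed for 119 desert peaks, or 25.3%, against 24.9% of all listed peaks. A p under 0.001 was listed for 12, or 2.55%, against 2.07%.

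**Figure D1:**
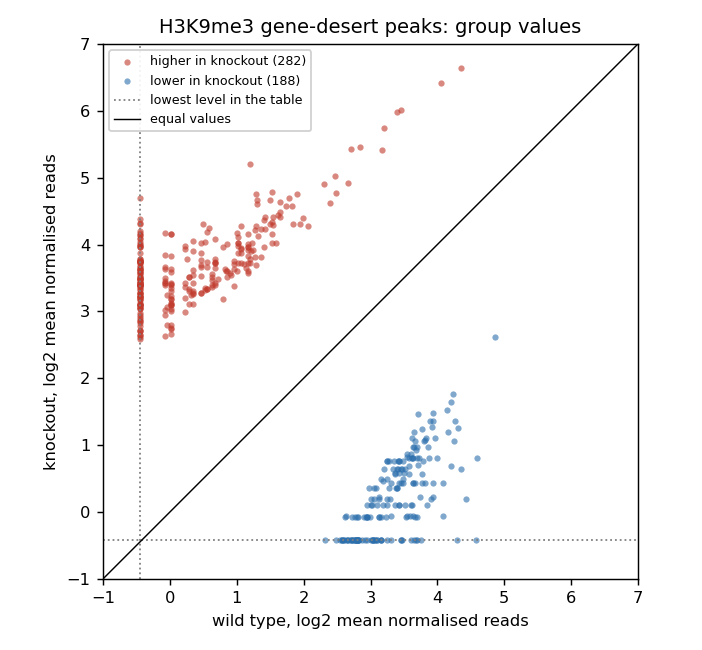
Each point is 1 of the 470 desert peaks, with the wild-type group mean on the horizontal and the knockout group mean on the vertical axis, both in log2 normalised reads. The 282 peaks higher in knockout and the 188 lower peaks form separate clouds, and dotted lines mark the lowest level of the table, where 99 wild-type and 55 knockout values lie.

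The direction of desert peaks differed with their signal. Among the 118 peaks of lowest signal (log2 mean 1.52 to 2.33) 49 were higher, or 41.5% (95% exact interval 32.5 to 51.0%). Among the 118 of highest signal (3.04 to 5.91) 93 were higher, or 78.8% (70.3 to 85.8%). The bins between them, with 117 peaks each, held 61.5% and 58.1%. The intervals of the lowest and highest bins do not overlap, but they cover counting error only. Neighbouring peaks are not independent, and all peaks come from the same 3 knockout and 3 wild-type samples. The contrast between the bins is thus a description. The lowest level was reached by 73 peaks in the bin of lowest signal and 16 in that of highest signal, and its part in the result was not tested. Over all listed peaks, higher ones also had more signal, with median log2 means of 2.84 against 2.60 in lower ones. In desert peaks these medians were 2.79 and 2.56, so the lean was not particular to them. The share by signal bin over all listed peaks is not given here. Among the 119 desert peaks with a p under 0.01, 90 were higher, or 75.6%, against 74.4% of all listed peaks at that p. With a p under 0.001 it was 10 of 12, or 83.3%, against 86.5%.

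Higher peaks were also longer, with a median length of 436 bases against 337 for lower peaks, as over all listed peaks, where the medians were 432.5 and 361. All 8 desert peaks longer than 1000 bases were higher in the knockout. Several of them lie close together on chromosome 5, so they are not separate cases, and the share over all listed peaks of that length is not given here. The largest signal was a peak of 2988 bases between Adgrd1, an adhesion G-protein-coupled receptor gene, and Sfswap, a splicing regulator (chr5:129235061-129238048). Its log2 mean was 6.64 in knockout and 4.36 in wild type, 4.86-fold up (p = 0.0237, FDR 1) per the authors' deposited table. A peak of 2972 bases between Sdk2 and Rpl38 (chr11:114554150-114557121) followed with 6.42 in knockout and 4.06 in wild type, 5.13-fold higher, per the authors' deposited table. Next among the 5 strongest came peaks between Tfap2c and Bmp7, between Fgf10 and Nnt, and between Hs3st4 and 4930571K23Rik, at 5.86-fold, 6.06-fold and 5.90-fold higher per the authors' deposited table. These peaks carried signal in both genotypes, so their folds do not depend on the lowest level, and their p-values were between 0.0237 and 0.0378. No lower desert peak reached that signal: 10 higher peaks had a knockout value above 5, and 0 lower peaks a wild-type value above 5, on the log2 scale. Several of these 10 lie close together on chromosome 5, so they are not separate cases. The same counts over all listed peaks are not given here, and there too higher peaks had more signal (median log2 means 2.84 against 2.60).

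The desert peaks of smallest p among the higher ones had almost no signal in wild type. In 9 of the 10 the wild-type value was at the lowest level, and their folds ran from 17.9 to 35.5 per the authors' deposited table. The largest fold, 35.5-fold higher, was between Impg1, a gene of the retinal matrix, and Htr1b, which encodes a serotonin receptor (chr9:81224978-81225342). Its log2 values were 4.70 in knockout and −0.45 in wild type (p = 0.00042, FDR 0.364) per the authors' deposited table. A peak between BC030500 and Aadat (chr8:59683504-59684132) had the smallest p among the higher peaks, with 4.38 in knockout and −0.45 in wild type, 28.4-fold higher (p = 0.000384, FDR 1) per the authors' deposited table. The signal of both peaks was thus present in the knockout mean and near nothing in the wild-type mean.

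The flanking genes of the other 8 peaks were of several kinds. One peak lay 125 kb from the start of Grik3, a kainate-type glutamate receptor subunit (chr4:125365249-125365883), and was 26.9-fold higher per the authors' deposited table. Others lay between Igfbp7 and Adgrl3, a latrophilin adhesion receptor (chr5:80463485-80464024, 24.8-fold), and between Stim2 and the protocadherin gene Pcdh7 (chr5:55948854-55949335, 23.3-fold) per the authors' deposited table. A peak between Ankrd7 and Kcnd2, a voltage-gated potassium channel gene, was 24.3-fold higher and 412 kb from the nearest start per the authors' deposited table. The remaining 4 lay in the deserts of Tfap2c and Bmp7 (23.4-fold), Sntb1 and Has2 (17.9-fold), Cadm2 and Speer2 (21.4-fold) and Epha3 and Csnka2ip (22.0-fold) per the authors' deposited table. Has2 makes hyaluronan, and Epha3 is a receptor for ephrins. All 10 had p-values between 0.000384 and 0.000974.

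Among the lower desert peaks, 3 of the 10 of smallest p were on chromosome 16. The smallest p of any desert peak was between Alcam, an adhesion molecule of the immunoglobulin family, and Zpld1 (chr16:54467261-54467896). Its log2 values were −0.42 in knockout and 4.30 in wild type, 26.2-fold lower (p = 0.000327, FDR 1) per the authors' deposited table. The next lay beyond Nectin3, a gene for a cell junction protein (chr16:46655531-46656151), with −0.42 and 4.58, 32.0-fold lower (p = 0.000959, FDR 0.606) per the authors' deposited table. Here the knockout mean was at the lowest level, as in 5 of these 10 peaks, and the wild-type mean held the signal.

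The third on chromosome 16 was between Epha3 and Csnka2ip (chr16:64278643-64279355), at 0.20 in knockout and 4.43 in wild type, 18.6-fold lower per the authors' deposited table. The higher peak named above for the same desert (chr16:64308079-64308720) lies in the same run of close neighbours, with 4.01 in knockout and −0.45 in wild type per the authors' deposited table. Another peak of that run, which spans 38.2 kb, was lower, so opposite directions stood side by side. The other 7 lay between Mdfic and Tfec (17.8-fold lower), Zc3h12c and AI593442 (16.2-fold), Kcnt2 and Cdc73 (13.2-fold), and Rgs17 and Gm3213 (13.2-fold) per the authors' deposited table. The rest lay between Rorb and Anxa1 (14.8-fold), Ddx18 and Dpp10 (18.1-fold) and Pom121l12 and Vstm2a (12.2-fold) per the authors' deposited table. Rorb is a nuclear receptor and Kcnt2 a sodium-activated potassium channel gene.

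By distance from a start site, the shares lay close together up to 300 kb. From 100 to 150 kb 60.1% of 263 peaks were higher, from 150 to 200 kb 57.0% of 100, and from 200 to 300 kb 60.5% of 81. Farther out, 17 of 23 peaks from 300 to 500 kb were higher, or 73.9% (95% exact interval 51.6 to 89.8%), and 1 of 3 beyond 500 kb. All these intervals overlap. The 3 peaks beyond 500 kb were 2 between Cobl and Pom121l12 on chromosome 11, of opposite direction, and 1 lower peak between Ankrd7 and Kcnd2 on chromosome 6. Upstream of the nearest start 62.9% of 229 peaks were higher and downstream 57.3% of 241. Just inside the limit were peaks at 100.025, 100.162 and 101 kb with log2 fold changes of −3.58, 2.80 and 3.20, and just outside it peaks at 99.9, 99.7 and 99.6 kb with 3.94, 3.75 and −3.21 per the authors' deposited table.

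**Figure D2:**
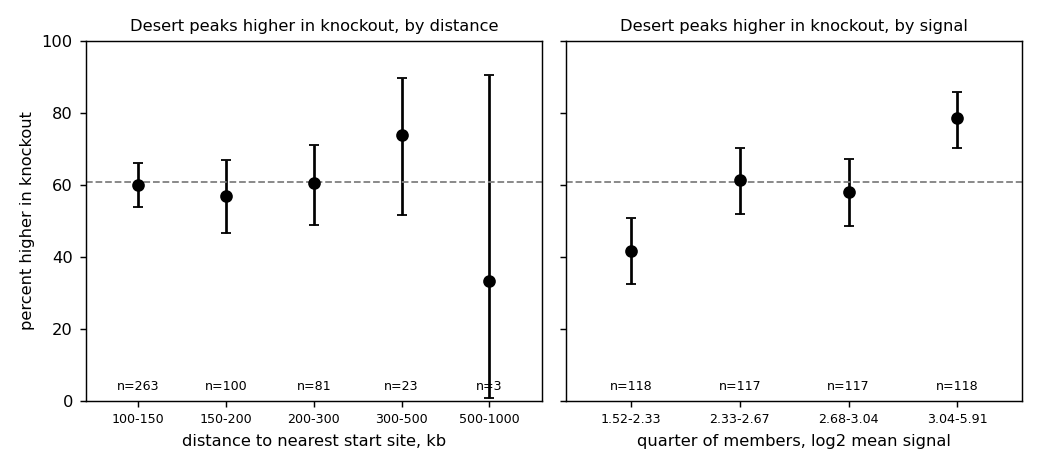
Points give the percent of desert peaks that were higher in knockout and bars the 95% exact binomial interval, on the left by distance to the nearest start site in kb and on the right by 4 bins of log2 mean signal, with the number of peaks (n) below. The dashed line is the 61.0% over all listed peaks of any distance and signal, and the lowest and highest signal bins stand at 41.5% and 78.8%.

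Chromosomes differed in the direction of their desert peaks. On chromosome 8, 33 of 36 desert peaks were higher, on chromosome 5, 30 of 33, on chromosome 13, 16 of 17, on chromosome 18, 19 of 23, and on chromosome 4, 22 of 27. On these 5 chromosomes together 120 of 136 desert peaks were higher, or 88.2%, and 82.2% of their 1355 other listed H3K9me3 peaks. Lower desert peaks prevailed on chromosome 16, with 27 of 38, on chromosome 6, with 21 of 32, on chromosome 10, with 10 of 12, and on chromosome 11, with 13 of 22. On these 4 together 31.7% of 104 desert peaks were higher, and 40.4% of their 1089 other listed peaks. These chromosomes were picked for their shares among the 17 with at least 10 desert peaks, so the contrast between both sets is a description. The remaining chromosomes held 129 higher and 101 lower desert peaks.

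On 8 of these chromosomes most of the other listed peaks leaned the same way as the desert peaks. Chromosome 11 was the exception, where 40.9% of desert peaks were higher but 64.3% of its 227 other peaks. On chromosome 10 the lean was slight in the other peaks, with 47.6% of 212 higher against 16.7% of 12 desert peaks. H3K9ac, an active mark, was listed as higher at 62.8% of peaks on chromosome 4, at 63.2% on chromosome 18, at 35.9% on chromosome 5, and at 15.0% on chromosome 8 and 17.5% on chromosome 13. On chromosomes 6, 10, 11 and 16 it was 16%, 10.6%, 47.5% and 41.0%, against 22.8% of all 8115 listed H3K9ac peaks. The part of the chromosome in the direction of a peak was not tested. The share of listed H3K9me3 peaks that lay in deserts was highest on chromosome 16 (13.8%) and chromosome 1 (12.5%) and lowest on chromosome 7 (4.52%).

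**Figure D3:**
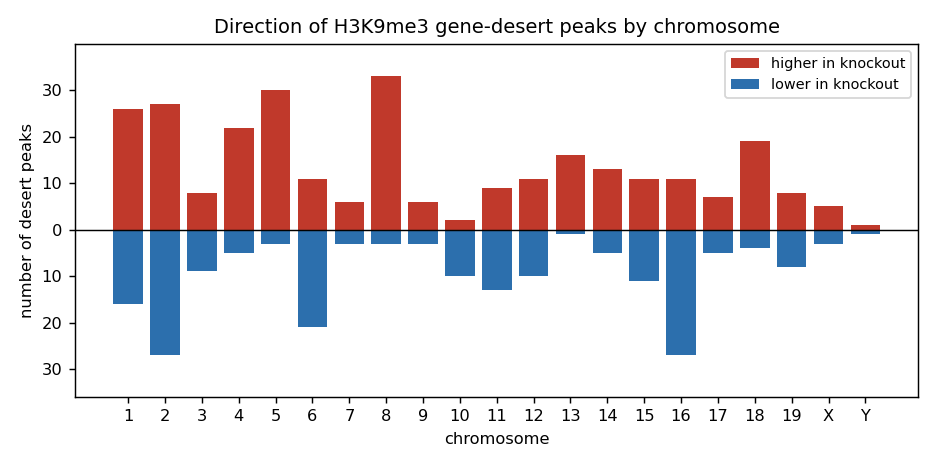
Bars above 0 count desert peaks higher in knockout and bars below 0 count desert peaks lower in knockout, for each chromosome. Chromosomes 5 and 8 have 3 lower peaks each against 30 and 33 higher ones, whereas chromosome 16 has 27 lower against 11 higher.

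Gaps between neighbouring RefSeq protein-coding genes were used to see which deserts hold the peaks. The 470 peaks fell into 257 such gaps, apart from 1 peak inside a gene model, and 320 peaks, or 68.1%, lay in gaps longer than 1 Mb. The gap with most desert peaks was between Nxph1, which encodes the synaptic ligand neurexophilin, and Ndufa4, a subunit of the respiratory chain. Its 2.65 Mb on chromosome 6 held 9 desert peaks, 8 of them lower, with log2 fold changes from −3.17 to 3.63 per the authors' deposited table. The gaps of Kcnt2 and Cdc73 and of Nectin3 and Gm52257 held 7 each, and those of Cdh8 and Cdh11, Lrrc4c and Iftap, Api5 and Lrrc4c, Cobl and Pom121l12, Sall1 and Tox3, and Tfap2c and Bmp7 held 6 each. Of 109 gaps with at least 2 desert peaks, 36 had only higher, 16 only lower and 57 both kinds. Peaks of a desert thus did not always share a direction.

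Runs of close neighbours were rarer. With a gap of at most 100 kb joining peaks, 163 desert peaks, or 34.7%, lay in 70 runs of at least 2, and 307 stood alone. Of these 70 runs, 27 had only higher, 14 only lower and 29 both kinds. The same counts over all listed peaks are not given here. The longest run by number was the desert next to Nectin3 on chromosome 16, where 7 peaks over 319 kb (chr16:46655531-46974173) were all lower. Their knockout values were −0.42 to 0.22 and their wild-type values 2.94 to 4.58, log2 fold changes −5.00 to −3.01, per the authors' deposited table. The lone 2 other listed peaks within 100 kb of the run were lower too. In this stretch no knockout mean was above 0.22 and no wild-type mean below 2.94.

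The next run lay between Tfap2c, a developmental AP-2 transcription factor, and Bmp7, a bone morphogenetic protein (chr2:172681218-172762980). Its 6 peaks over 81.8 kb were all higher, with log2 fold changes from 2.55 to 4.55 and knockout values from 3.23 to 6.01 per the authors' deposited table. Wild-type values there ran from −0.45 to 3.46, with 3 of 6 at the lowest level, per the authors' deposited table. All 14 other listed H3K9me3 peaks within 100 kb were higher as well. This gap of 309 kb is short beside the median of 1.16 Mb over the deserts with listed peaks.

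A run of 5 higher peaks within 31.1 kb lay between Adgrd1 and Sfswap (chr5:129229811-129260937). It includes the desert peak of largest signal, and its log2 fold changes were 2.24 to 4.01 per the authors' deposited table. As many as 36 other listed peaks lay within 100 kb of it, all higher, so the desert peaks here are the middle of a longer stretch. The fourth run had 4 higher peaks over 182 kb between Sall1, a zinc-finger developmental regulator, and Tox3 (chr8:89894506-90076839), with log2 fold changes from 2.75 to 3.05 per the authors' deposited table. That gap held 6 desert peaks and 7 other listed peaks, and all 13 were higher in the knockout. Chromosomes 8 and 5 are among those where most listed peaks were higher, and chromosome 16 among those where most were lower. The run of higher peaks beside Tfap2c differs from its chromosome 2, where 27 of 54 desert peaks and 40.9% of 464 other listed peaks were higher.

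**Figure D4:**
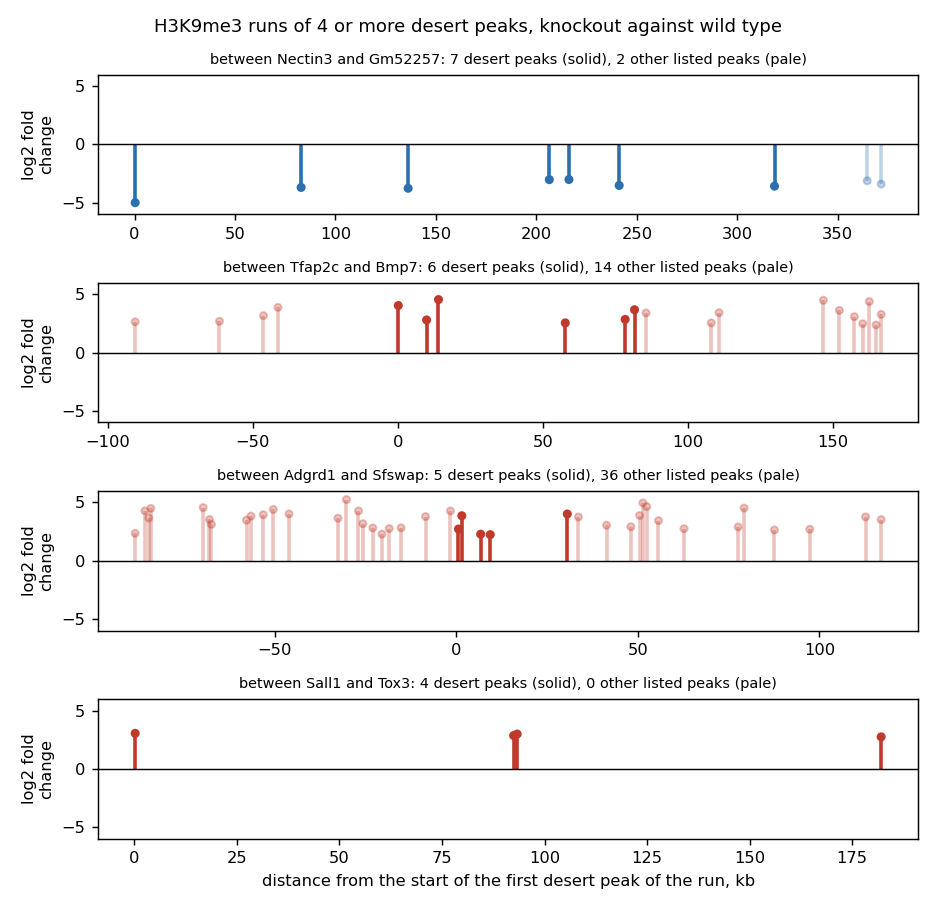
The 4 runs of at least 4 desert peaks are drawn by distance from the start of the first peak in kb (horizontal) and log2 fold change of knockout against wild type (vertical), with desert peaks solid and other listed H3K9me3 peaks pale. The run next to Nectin3 has 7 lower peaks, and the runs of Tfap2c, Adgrd1 and Sall1 have 6, 5 and 4 higher peaks.

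The genes at the edges of these deserts were grouped by name. Of 252 gaps over 200 kb that held a desert peak, 60, or 23.8%, had a neural adhesion or guidance gene at an edge (cadherins, protocadherins, contactins, Slitrk, ephrin receptors and the like). Such genes flank 7.87% of all 1689 gaps over 200 kb and 17.7% of their summed length since their deserts are long. Gaps flanked by this list held 128 desert peaks, 86 higher and 42 lower, or 67.2% higher against 60% of all desert peaks. Its gaps on chromosome 5 held only higher peaks, and 30 of all 33 desert peaks on that chromosome were higher. The name pattern also took in Cdh5, a cadherin gene of endothelial cells, so not every gene of this list is neural. The lists were chosen with earlier results of these data known, and no test was made of them.

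Among the adhesion genes, gaps next to a cadherin gene named Cdh and a number held 27 desert peaks, 21 higher and 6 lower. Between Cdh8 and Cdh11 on chromosome 8 there were 4 higher and 2 lower peaks, between Cntnap5b and Cdh20 on chromosome 1, 4 higher, and between Cdh6 and Cdh9 on chromosome 15, 3 lower. The cadherin deserts thus did not share a direction. Gaps next to Slitrk genes, which encode synaptic leucine-rich repeat proteins, all on chromosome 14, held 6 peaks, all higher. On that chromosome 13 of all 18 desert peaks were higher, and 66.4% of 220 other listed peaks. On either side of Lrrc4c, which encodes the netrin-G1 ligand of synapses, lay 12 desert peaks, 8 higher and 4 lower. Next to ephrin receptor (Epha) genes 4 of 11 were higher. The gaps of Epha6 and Epha3, with 5 and 3 of these peaks, lie on chromosome 16, where 28.9% of all desert peaks were higher.

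Developmental transcription factor genes flanked 27 of the 252 gaps, or 10.7%, against 9.53% of all gaps over 200 kb. These held 48 desert peaks, 37 higher and 11 lower, or 77.1% higher against 60% of all desert peaks. The deserts of Tfap2c and Sall1 gave 12 of the 37, and without them 25 of 36 were higher, or 69.4%. In this list, gaps on chromosomes 4, 5, 8, 13 and 18 held only higher peaks, and they gave many of those 25. On these chromosomes 88.2% of all desert peaks were higher, and the part of the chromosome in the share of this list was not tested. Smaller groups were 3 higher peaks beside Sox11, a neural transcription factor gene, and 3 lower ones between Zeb2, a regulator of epithelial-mesenchymal transition, and Acvr2a, an activin receptor gene. The name pattern also took in Lmo7, which is not a transcription factor. Channel and neurotransmitter receptor genes flanked 22 gaps, or 8.73% against 5.86% of all. Here the name pattern also took in Glrx3, a glutaredoxin gene that is neither a channel nor a receptor. With gaps of any length and without Glrx3, 23 gaps beside these genes held 26 higher and 18 lower desert peaks.

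Smooth muscle, matrix and vascular genes flanked 12 of the 252 gaps, or 4.76%, against 4.44% of all gaps over 200 kb. They held 24 desert peaks, 20 higher and 4 lower, or 83.3% higher against 60% of all desert peaks. The Tfap2c and Bmp7 gap gave 6 of these, and without it 14 of 18 were higher, or 77.8%. That gap was also counted above beside transcription factors, and the gaps of Igfbp7 and Cdh5 beside adhesion genes, so the lists share peaks. The gaps of Fgf10 (a fibroblast growth factor) and Igfbp7 gave 3 higher peaks each. Next to Agtr1b, a gene for an angiotensin II receptor, were 1 higher and 1 lower peak, as next to Bmp2, and next to Cdh5, the cadherin of endothelial cells, 2 higher peaks. The rest were single peaks: 1 each lay beside Sulf1, Adamts5, Pdgfd and Fbn2, all higher, and 1 each beside Fgf9 and Igfbp3, both lower. The gaps of Fgf10, Igfbp7, Cdh5 and Fbn2, with only higher peaks, lie on chromosomes 13, 5, 8 and 18. On these chromosomes and chromosome 4 together, 88.2% of all desert peaks were higher. The part of the chromosome in the share of this list was not tested. No contractile marker such as Acta2 or Myh11 flanked a desert with a listed peak. Zfp genes flanked 3 of the gaps, or 1.19% against 2.37% of all gaps over 200 kb. Olfactory or vomeronasal receptor genes flanked 1, or 0.397% against 1.18%.

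By nearest annotated gene, most desert peaks carried a label that says little. Genes named by a number only (Gm, Rik and the like) were nearest to 396 of the 470, or 84.3%, against 64.2% of all listed peaks. The 377 nearest genes were mostly used once: 307 had 1 desert peak, and 4 was the most for any, at Rps16-ps2 (4 higher), Gm6912 (4 lower) and Gm12004 (2 higher and 2 lower). Named genes of the lists were few. Neural adhesion genes were nearest to 0.426% of desert peaks, against 1.32% of all listed peaks. For channel and receptor genes it was 0.638% against 1.56%, and for developmental transcription factors 0.638% against 2.49%. MicroRNA genes were nearest to 0.851% against 1.10%. Tfap2c was nearest to 3 higher peaks. Kcna4 and Kcnc2, both voltage-gated potassium channel genes, had 1 lower peak each (log2 fold changes −4.10 and −3.08) per the authors' deposited table. Grik3, of the same list, had 1 higher peak (4.75) per the authors' deposited table. Ctnna2, which encodes neuronal alpha-catenin, had 1 lower peak (−2.88) and Slitrk1 1 higher peak (2.50) per the authors' deposited table. The 4 peaks nearest to microRNA genes (Mir195b, Mir6354, Mir669h and Mir3961) were all higher, with log2 fold changes of 3.85, 3.17, 3.12 and 2.41 per the authors' deposited table.

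RefSeq gave another view of how empty these deserts are. Of the 470 peaks, 455 lay outside every RefSeq gene, 14 in a long non-coding RNA gene and 1 in a protein-coding gene. The non-coding genes included Gm31724, which contains the second strongest desert peak, and Gm19859, with 2 higher peaks on chromosome 15. Counting both ends of every RefSeq gene, 293 desert peaks, or 62.3%, were still more than 100 kb from any, and 177 were nearer. The median distance to a protein-coding gene was 371 kb and the largest 2.13 Mb. In the 65 peaks more than 1 Mb from a protein-coding gene 40 were higher, or 61.5%, close to the 60% of all desert peaks.

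The active marks were mostly distant. No desert peak overlapped a listed H3K9ac peak, and 10, or 2.13%, had one within 100 kb, against 14.7% of all listed H3K9me3 peaks. The median distance to the nearest listed H3K9ac peak was 904 kb, against 442 kb over all listed H3K9me3 peaks. The rule keeps desert peaks away from start sites, where H3K9ac peaks gather, so these distances follow in part from the rule. For H3K4me3 1 desert peak (0.213%, against 1.49% of all listed H3K9me3 peaks) had a listed peak within 100 kb, at the promoter of Rybp, a Polycomb protein gene, 99.7 kb away.

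At these 10 peaks, H3K9ac was lower in the knockout at each nearest listed peak, while H3K9me3 was higher at 8 and lower at 2. Lower H3K9ac prevails in that table, and 5 of the 8 share 1 H3K9ac peak near Tfap2c, so they are not separate cases. That acetylation peak had log2 values of 2.38 in knockout and 4.34 in wild type, a log2 fold change of −1.96 (p = 0.0116, FDR 0.147) per the authors' deposited table. The closest pair was on chromosome 13 beside 4930471G24Rik, 3.75 kb apart. There H3K9me3 stood at 3.03 in knockout and −0.45 in wild type (p = 0.0154), and H3K9ac at 4.63 and 7.09 (log2 fold change −2.46, FDR 0.0469) per the authors' deposited table. Of the 8, the remaining peaks lay near Trps1, a GATA-type zinc-finger gene, and Dusp10, a MAP kinase phosphatase gene. Both marks were lower near Gm48605 and Gm9864.

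**Figure D5:**
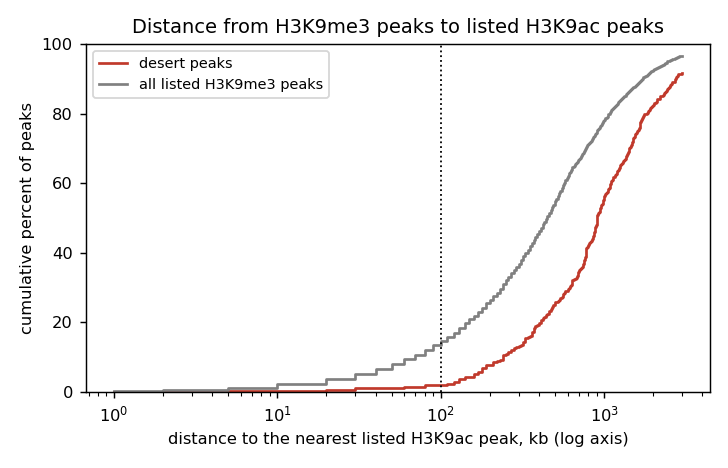
Lines give the cumulative percent of H3K9me3 peaks with a listed H3K9ac peak within the distance on the horizontal axis (kb, log scale), for the desert peaks and for all listed H3K9me3 peaks. At 100 kb (dotted line) the desert line stands at 2.13% and the line of all peaks at 14.7%.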

How the data were processed

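The study deposited, for each histone mark, a table of selected peaks with the authors' comparison of knockout and wild type. Per the file headers, the H3K9me3 and H3K9ac tables hold 3 log2 means of normalised reads (both genotypes, knockout alone, wild type alone), with a log2 fold change and its p-value and FDR. Knockout minus wild-type mean gave the listed log2 fold change to within 0.01. The submitters' processing notes name CASAVA 1.4 and mm9, while the aligner, the peak caller, the differential test and the normalisation were not given in the sources used here. Nearest-gene positions in the table overlapped those of RefSeq assembly GRCm38.p6 for 238 of 239 matched nearest genes (of 377), and 228 of 460 H3K4me3 peaks overlapped a RefSeq promoter window. Coordinates are copied from the table unchanged and read as GRCm38, which was not tested for the H3K9me3 peaks themselves. Lengths are end minus start plus 1, which is 1 less than the deposited width.

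Computation used Python 3.11.15, numpy 2.4.6, pandas 2.3.3, scipy 1.17.1 and matplotlib 3.10.9. Runs joined desert peaks with gaps of at most 100 kb, and distances between peaks count the bases between them (0 for an overlap of at least 1 bp). Gaps between genes were taken between neighbouring RefSeq protein-coding genes, with overlapping genes merged. The functions for runs, distances and gaps were tested on simulated data. The RefSeq promoter table holds no chromosome 18, so 447 desert peaks could be compared with it. The gene table gives no strand, so both ends of a gene were used. No test was made over the desert peaks. The p-values and FDRs are the authors', and the variation among samples that they rest on may be only technical.

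Desert peaks were named by a rule: per direction the 10 of smallest p, the 5 of highest signal, the 5 farthest, the 3 on either side of the distance limit, the longest runs, the nearest genes with most peaks and up to 4 per gene list. The fullest deserts, deserts flanked by list genes, peaks over 1000 bases and peaks near H3K9ac were chosen after their values were seen. The members, lists and rules were chosen with earlier results of these data known. Alternatives were stricter p, higher signal, other distance limits, windows and gaps, merged neighbours and left-out chromosomes.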

Additional observations from a re-analysis of the deposited data

How the results depend on the processing

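The number of desert peaks followed the distance limit: 1041 at 50 kb, 107 at 200 kb and 3 at 500 kb, while 457 distal intergenic peaks lay over 100 kb from either end of any RefSeq gene. The share higher in knockout, 60% as reported, became 75.6% with p under 0.01, 83.3% with p under 0.001 and 68.5% with signal at or above the median. At the 500 kb limit it was 33.3%, of 3 peaks, which turns the majority. It was 48.5% without chromosomes 4, 5, 8, 13 and 18, which also turns the majority, and 68.0% without chromosomes 6, 10, 11 and 16, alternatives chosen after seeing the data. The median absolute log2 fold change moved from 3.10 to 2.89 with both group values above the lowest level and to 3.93 with p under 0.01. The share in runs was 26.8% with a gap of 50 kb and 57.0% with 500 kb, and the share near H3K9ac 0.213% within 10 kb and 26.0% within 500 kb. These follow from the wider or narrower limits. The other alternatives stayed within the 95% interval of the share. No paired analysis was possible because the tables hold no value per sample, and for the same reason no replicate could be left out. Depth per library is unknown.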
